A study of Homo sapiens with 16 samples.

Results

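The 10 genes described here are RSRP1, SEC31B, PABPC1L, AHSA2P, GOLGA8A, GOLGA8B, HERC2P2, PRSS30P, CLK1 and CLK4. The first 5, HERC2P2 and PRSS30P were chosen by their higher counts and TPM in the pinometostat libraries of this series, and GOLGA8B, CLK1 and CLK4 as genes known for transcripts that keep introns. They are 10 of the 57500 genes counted. All 10 of 10 passed the filter on low counts, which left 17306 genes. Because that difference helped to choose them, the values of all 10 in that comparison are given below as a description without a test. Counts summed per gene hold neither the place of an RNA in the cell nor the splicing of single introns, so the name nuclear-retained rests on background knowledge of some of these genes and was not measured.

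Most introns are removed while a transcript is made or soon after. A polyadenylated transcript that keeps an intron is often held in the nucleus, where it can be spliced later or degraded by the nuclear exosome. If it reaches the cytoplasm, a stop codon inside the intron usually marks it for nonsense-mediated decay. CLK1 and CLK4 are CDC-like kinases that phosphorylate the SR proteins, a family of splicing factors, and both are known for a nuclear pool of transcripts with introns around a short coding exon. That exon is also skipped in some transcripts, and the shortened CLK1 protein lacks kinase activity.

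Total RNA was sequenced from HEK293T cells, a transformed human embryonic kidney line, that carried a lentivector with either H2A, a core histone, or H2A(E92K), which is altered in the acidic patch of the nucleosome. The 4 groups of 4 samples were H2A cells with 2.5 µM pinometostat for 24 h, H2A cells with 1 µM JQ1 for 3 h, H2A(E92K) cells with DMSO, and H2A cells with DMSO, called pinometostat, JQ1, E92K and H2A DMSO below. Pinometostat inhibits DOT1L, the methyltransferase of a lysine in the core of histone H3, and JQ1 inhibits the BET bromodomain proteins, which bind acetylated histones. The labels give no time for DMSO, list no compound for those samples although their titles name DMSO, and do not say whether the lines are clones or the 4 samples of a group are separate cultures, so that a p-value here rests on the spread among such samples, which may be technical.

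The splice sites that flank the short exon of CLK1 and CLK4 are shown because these introns are among those that annotated retained-intron transcripts of the kinases keep. Other introns of both genes are kept in such transcripts too. All sequences are from GENCODE release 29 transcripts on GRCh38, minus strand, written 5′ to 3′. In the splice sites the capitals mark the first and last intron dinucleotide, with 3 exon bases beside 12 intron bases at the donor and 22 intron bases beside 3 exon bases at the acceptor. In the exons the capitals mark positions at which the genes differ.
CLK1 exon, chr2:200860125-200860215: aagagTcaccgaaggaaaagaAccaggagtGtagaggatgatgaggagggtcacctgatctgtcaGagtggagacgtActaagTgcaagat
CLK4 exon, chr5:178617344-178617434: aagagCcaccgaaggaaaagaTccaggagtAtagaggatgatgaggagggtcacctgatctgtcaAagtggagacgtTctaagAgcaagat
CLK1 donor of the intron before it, chr2:200861226-200861240: gggGTatgaacgttt
CLK4 donor of the intron before it, chr5:178618544-178618558: tcgGTatgattggtt
CLK1 acceptor of the intron before it, chr2:200860213-200860237: gccgcccacttgacgtttccAGaag
CLK4 acceptor of the intron before it, chr5:178617432-178617456: tgctgcccacttgccgttccAGaag
CLK1 donor of the intron after it, chr2:200860113-200860127: gatGTatagaatatt
CLK4 donor of the intron after it, chr5:178617332-178617346: gatGTatagaatatt
CLK1 acceptor of the intron after it, chr2:200859744-200859768: gagatttatttctctcttttAGatg
CLK4 acceptor of the intron after it, chr5:178616946-178616970: tctttttccctcctcactctAGatg

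The exon has 91 bases in both kinases, of which 85 are equal and 6 differ. The donor after the exon is identical over all 15 bases, whereas the donor before it is equal at 10 of 15 bases. The acceptors are equal at 14 of 25 bases before the exon and 12 of 25 bases after it. These counts compare the sites position by position. No alignment with gaps was made, so sites shifted by a base can be more alike than counted. The intron after the exon has 378 bases in CLK1 (chr2:200859747-200860124) and 395 bases in CLK4 (chr5:178616949-178617343), and the intron before it has 1022 bases in CLK1 (chr2:200860216-200861237) and 1121 bases in CLK4 (chr5:178617435-178618555). Both genes also have an annotated intron that runs across the exon and skips it, of 1491 bases in CLK1 and 1607 bases in CLK4.

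The golgin genes GOLGA8A and GOLGA8B are near-identical copies on chromosome 15, and the sites of their retained intron of 1091 bases are shown because no base in them separates the copies.
GOLGA8A donor, chr15:34387821-34387835: gctGTgagtcttgcc
GOLGA8B donor, chr15:34534042-34534056: gctGTgagtcttgcc
GOLGA8A acceptor, chr15:34386739-34386763: ttctctctacctctcccccaAGtcc
GOLGA8B acceptor, chr15:34532960-34532984: ttctctctacctctcccccaAGtcc

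Retained-intron transcripts were annotated for 8 of the 10 genes, against 46.4% of the 17240 tested genes that GENCODE 29 holds. CLK1, CLK4 and GOLGA8B were chosen as genes known for such transcripts, so this count follows in part from the choice and is a description. CLK1 had 8 of them and CLK4 had 7, followed by SEC31B and AHSA2P with 5 each, RSRP1 with 4, GOLGA8B with 3, PRSS30P with 2 and GOLGA8A with 1. PABPC1L and HERC2P2 had none. Over these 8 genes, 46 annotated introns lay inside an exon of a retained-intron transcript, of 31 to 1607 bases, and 42 of them began with GT and ended with AG. Some of these introns overlap each other. For 44 of the 46, the whole intron lay inside the exon positions that the deposited count files list for the gene, so reads from such an intron fall in the gene's counted exons. The exceptions were 2 introns of AHSA2P. The share of a gene's annotated exonic bases found only in retained-intron transcripts reached 56.5% in PRSS30P, 46.9% in CLK1, 38.3% in CLK4 and 31.0% in SEC31B, and lay at 18.0% in AHSA2P, 16.3% in GOLGA8B and 14.5% in GOLGA8A. In RSRP1, PABPC1L and HERC2P2 it was 0.0%.

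Several of the genes share sequence with others, which limits how far their counts can be told apart. Of the distinct 50-base words in HERC2P2 transcripts, a pseudogene of the ubiquitin ligase HERC2 (chr15:22495570-22590815, plus strand), 72.3% also occur in transcripts of other genes, 61.4% in HERC2P9, 44.7% in HERC2P3 and 28.5% in HERC2. GOLGA8A (chr15:34379068-34437466) shared 68.9% of its words with GOLGA8B (chr15:34525207-34588503), which shared 60.0% of its own with GOLGA8A. AHSA2P (chr2:61177418-61191203, plus strand) shared 31.9% with USP34, a gene on the opposite strand that overlaps 3263 of its 8382 counted bases, and since the strand setting is not given, reads of these neighbours cannot be told apart. SEC31B (chr10:100486642-100519864, minus strand) shared 16.8% with AL133352.1 on the same strand. RSRP1 (chr1:25242237-25338213, minus strand) shared 10.0% with other genes in all. For CLK4 (chr5:178602664-178630615) the share was 1.8%, for PABPC1L (chr20:44910062-44959035, plus strand) 0.6%, for CLK1 (chr2:200853009-200864744) 0.1% and for PRSS30P (chr16:2839568-2842744, minus strand) 0.0%. The values of GOLGA8A, GOLGA8B, HERC2P2 and AHSA2P are therefore uncertain as values of single genes.

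**Figure D1:**
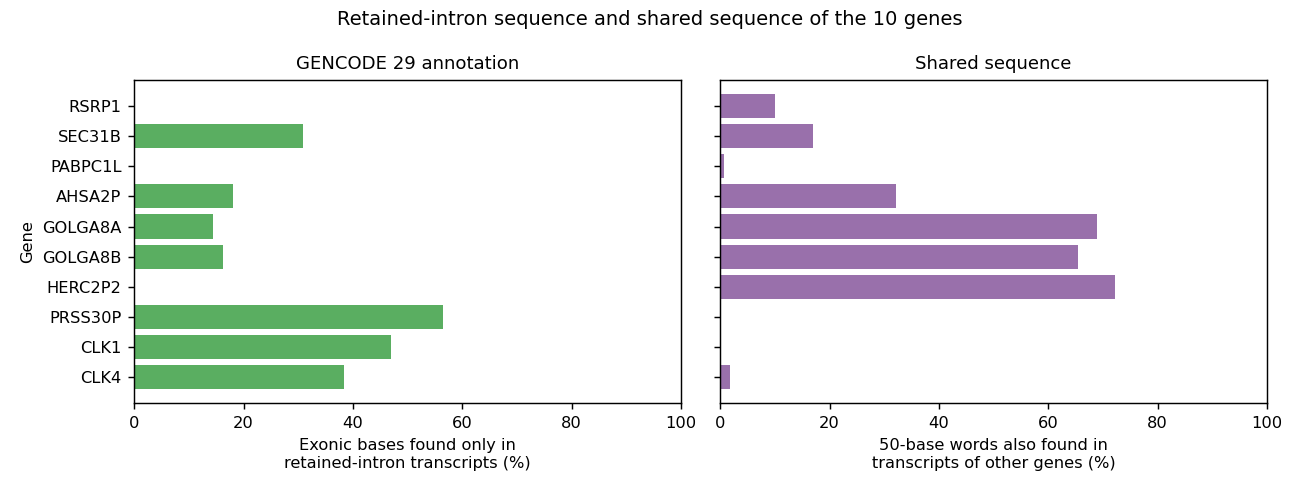
Left, the percentage of each gene's exonic bases that GENCODE 29 places only in retained-intron transcripts. Right, the percentage of each gene's distinct 50-base words that also occur in transcripts of other genes; PRSS30P, CLK1 and CLK4 combine the longest bars on the left with almost none on the right.

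Depth ran from 17779692 to 27599686 counts per library, and 6 of 6 markers of HEK293T cells were above the filter, while PTPRC, CD3E, HBB, ALB and PECAM1, which mark other cells, had at most 4 counts in any library. Of the HEK293T markers, KRT8 was lower with pinometostat, at 17.3 ± 2.2 CPM against 23.5 ± 1.5 CPM in H2A DMSO. A single library stood apart. In JQ1 replicate 1 mitochondrial genes took 16.5% of counts, against 7.45% in E92K replicate 4 and 3.04% to 5.04% in the other 14 libraries. The nuclear RNA MALAT1 had 963 CPM in JQ1 replicate 1 and 345 CPM in E92K replicate 4, against 52.0 to 142 CPM elsewhere. Results that rest on these libraries are given with and without them where such fits were made.

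Levels are CPM, read counts scaled to the TMM-adjusted size of the library, each group as mean ± SD over 4 samples, and comparisons between genes use TPM, which is per length. In bulk RNA, fewer cells with a transcript and less of it per cell cannot be told apart. In pinometostat-treated cells CLK1 was the most abundant of the genes at 30.0 ± 2.5 TPM. HERC2P2, GOLGA8A, PRSS30P, RSRP1 and CLK4 followed with means of 14.5, 11.8, 11.035, 10.9 and 10.6 TPM, and SEC31B was lowest at 3.08 ± 0.63 TPM. In H2A DMSO cells CLK1 was again highest at 19.1 ± 1.8 TPM and SEC31B lowest at 1.39 ± 0.62 TPM.

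RSRP1, a small arginine- and serine-rich protein, had 21.8, 30.4, 21.6 and 26.6 CPM in the pinometostat libraries, against 8.22, 14.05, 12.6 and 6.87 CPM in the H2A DMSO libraries. The lowest pinometostat library lay above the highest DMSO library. Its fitted difference was 1.27 ± 0.22 on the log2 scale (SE), or 2.40-fold. SEC31B, a homologue of the outer coat protein of COPII vesicles, had 7.16, 9.01, 6.85 and 10.1 CPM with pinometostat and 4.95 CPM at most with DMSO, where replicate 4 had only 1.65 CPM. The difference of SEC31B was 1.29 ± 0.36 log2. PABPC1L, a paralogue of the cytoplasmic poly(A)-binding protein best known from oocytes, had 15.5, 20.03, 11.003 and 18.6 CPM with pinometostat and 7.06, 10.3, 9.31 and 4.84 CPM with DMSO. Its groups came close to each other, with pinometostat replicate 3 just above DMSO replicate 2, and its difference was 1.05 ± 0.26 log2.

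Among the pseudogenes and copies, AHSA2P, related to activators of the HSP90 chaperone, averaged 22.6 ± 4.1 CPM with pinometostat and 10.5 ± 2.8 CPM with DMSO. HERC2P2 had 32.0, 38.3, 28.0 and 38.1 CPM with pinometostat, against 10.5, 19.3, 15.9 and 8.90 CPM with DMSO. PRSS30P, a pseudogene of a serine protease and the only one of these with no shared 50-base word, had 9.58, 11.4, 9.65 and 13.7 CPM with pinometostat and 5.59, 6.54, 5.33 and 3.64 CPM with DMSO. The golgin copies GOLGA8A and GOLGA8B averaged 26.9 ± 6.0 and 10.7 ± 2.1 CPM with pinometostat, against 10.4 ± 3.5 and 4.45 ± 0.94 CPM with DMSO. The log2 differences of these 5 genes ran from 1.07 ± 0.24 in PRSS30P through 1.11 ± 0.29 in AHSA2P, 1.27 ± 0.40 in GOLGA8B and 1.32 ± 0.31 in HERC2P2 to 1.37 ± 0.39 in GOLGA8A.

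The kinases had smaller differences with tighter replicates. CLK1 had 50.3, 57.7, 54.9 and 48.1 CPM with pinometostat and 25.2, 31.1, 34.2 and 31.7 CPM with DMSO, a log2 difference of 0.79 ± 0.14 or 1.73-fold. CLK4 had 27.7, 30.1, 29.1 and 27.4 CPM with pinometostat and 19.2, 22.3, 22.04 and 16.9 CPM with DMSO, a log2 difference of 0.51 ± 0.13 or 1.42-fold. Across the 4 pinometostat libraries the highest CPM was 1.2 times the lowest in CLK1 and 1.1 times in CLK4, whereas this ratio was 1.37 to 1.82 in the other 8 genes.

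All 10 of 10 genes had every pinometostat library above every H2A DMSO library, as did 12.7% of the tested genes, while 13.5% had every pinometostat library below. Of the tested genes, 8.2% were past an adjusted p of 0.05, 3.62% higher and 4.58% lower, and no call is read for the 10 genes. The separation of those chosen by their higher levels follows from that choice. GOLGA8B, CLK1 and CLK4 were chosen as genes known for kept introns, but with earlier results of these data known, so theirs is a description too. The median log2 difference of the genes was 1.19, against 0.03 over all tested genes.

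**Figure D2:**
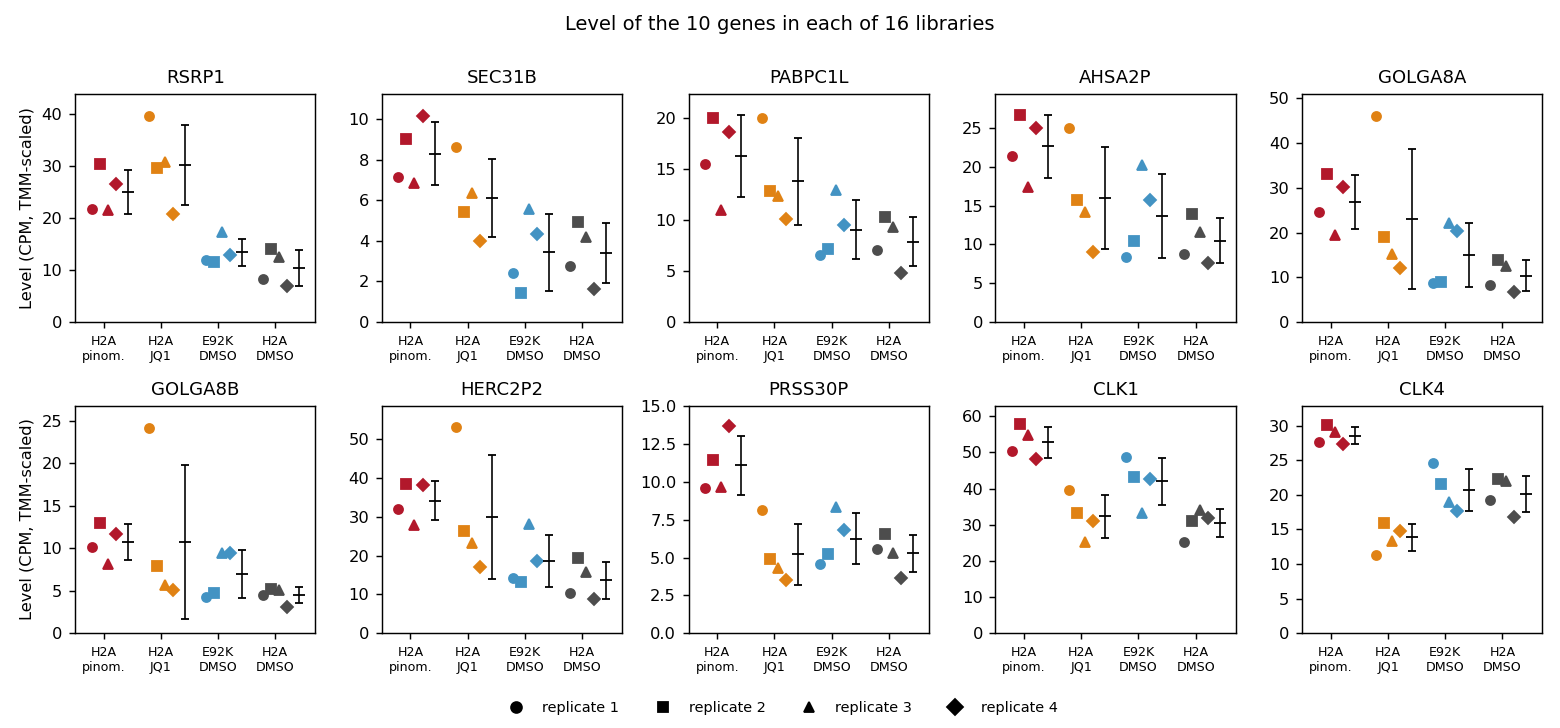
Level of each gene (y axis, CPM scaled by TMM) in the 16 libraries, by group from pinometostat to H2A DMSO; points are libraries, shapes are replicate numbers, and black bars give the mean and SD of 4 libraries. JQ1 replicate 1 is the highest JQ1 library in every panel but CLK4, where it is the lowest at 11.3 CPM.

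The stated rule of choice did not use the JQ1 and E92K libraries, and their comparison was tested. The genes were, however, chosen with earlier results of these data known, so full independence of this test is not established. These groups differ in both the vector and the compound, which cannot be told apart. RSRP1 had 39.7, 29.6, 30.7 and 20.8 CPM in JQ1 and 11.97, 11.6, 17.3 and 12.9 CPM in E92K, so the groups did not overlap. Its log2 difference was 1.17 ± 0.22 with an adjusted p of 0.00107 (edgeR quasi-likelihood test, Benjamini-Hochberg over 17306 genes), and the gene passed in all 19 alternative settings, with adjusted p from 6.45e-08 to 0.0148. CLK4 went the other way, with 11.3, 15.97, 13.4 and 14.7 CPM in JQ1 and 24.6, 21.6, 18.9 and 17.7 CPM in E92K. All 4 JQ1 libraries lay below all 4 E92K libraries. The log2 difference of CLK4 was -0.58 ± 0.13 with an adjusted p of 0.00406 in edgeR, and over the alternatives the adjusted p ran from 0.000339 to 0.0580, the last on the log2(TPM + 1) scale, where the call was lost.

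The other genes did not pass in that comparison. CLK1 averaged 32.3 ± 5.9 CPM in JQ1 and 42.0 ± 6.5 CPM in E92K, a log2 difference of -0.38 ± 0.14 with an edgeR adjusted p of 0.0600. It passed in 8 of 19 alternative settings, with adjusted p from 0.00456 to 0.212 (edgeR and the other tools). Without JQ1 replicate 1 it was -0.50, with an edgeR adjusted p of 0.00584. HERC2P2, SEC31B, PABPC1L, GOLGA8A and GOLGA8B had log2 differences of 0.68, 0.82, 0.60, 0.60 and 0.59, AHSA2P had 0.21 and PRSS30P -0.28, with edgeR adjusted p from 0.115 to 0.643 over these 7 genes. Thus 2 of 10 genes passed, 1 higher and 1 lower, beside 22.9% of all tested genes (10.9% higher and 11.9% lower), a share near that background. RSRP1 was the 1 gene of the 10 with all JQ1 libraries above E92K, as in 8.94% of tested genes, and CLK4 the 1 with all below, as in 11.2%. The count was 3 without JQ1 replicate 1 3 without JQ1 replicate 4, and 6 without E92K replicate 3, when CLK1, HERC2P2, PABPC1L and SEC31B also passed.

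The H2A DMSO libraries also served in choosing the genes, so the values of JQ1 beside them are given as a description, without a p-value. RSRP1 was higher by 1.53 ± 0.23 log2, and its JQ1 libraries all lay above DMSO, as in 8.26% of tested genes. CLK4 averaged 13.8 ± 2.0 CPM in JQ1 and 20.1 ± 2.6 CPM in H2A DMSO, a log2 difference of -0.54 ± 0.13, with all JQ1 libraries below DMSO, as in 12.2% of tested genes. In the other 8 genes the groups overlapped. HERC2P2 differed by 1.12 ± 0.31 log2, GOLGA8B by 1.24 ± 0.40, GOLGA8A by 1.13 ± 0.39 and PABPC1L by 0.80 ± 0.27. Without JQ1 replicate 1 these were 0.67, 0.46, 0.53 and 0.54, while RSRP1 had 1.34 and CLK4 -0.48. Over all tested genes 17.6% were called in this comparison, 7.16% higher and 10.4% lower.

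PRSS30P and CLK1 in JQ1 lay close to H2A DMSO. PRSS30P had 8.12, 4.93, 4.35 and 3.498 CPM in JQ1 against 3.64 to 6.54 CPM in H2A DMSO, a log2 difference of -0.04 ± 0.25. CLK1 had 39.5, 33.3, 25.3 and 31.0 CPM in JQ1 against 25.2 to 34.2 CPM in H2A DMSO, a log2 difference of 0.08 ± 0.14 that turned to -0.12 with scaling by library size alone and to -0.21 on the log2(TPM + 1) scale. The 3 h of JQ1 and the 24 h of pinometostat are different times, so these values stand side by side without a test of the compounds.

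Beside the same H2A DMSO libraries, none of the 17306 genes passed in E92K cells in edgeR (0.0%), of which 1296 had an unadjusted p below 0.05; DESeq2 called 4 genes, none of them among the 10. In none of the 10 were all E92K libraries above, or all below, H2A DMSO, which 1.99% and 3.18% of tested genes showed. CLK1 had 48.8, 43.2, 33.2 and 42.7 CPM in E92K, against 25.2, 31.1, 34.2 and 31.7 CPM in H2A DMSO. Apart from replicate 3, every E92K library lay above every DMSO library. The log2 difference of CLK1 was 0.46 ± 0.14. For the other 9 genes it ran from 0.01 ± 0.37 in SEC31B to 0.65 ± 0.40 in GOLGA8B, and CLK4 had 0.04 ± 0.13. The sign of SEC31B, CLK4 and PABPC1L changed under other settings.

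**Figure D3:**
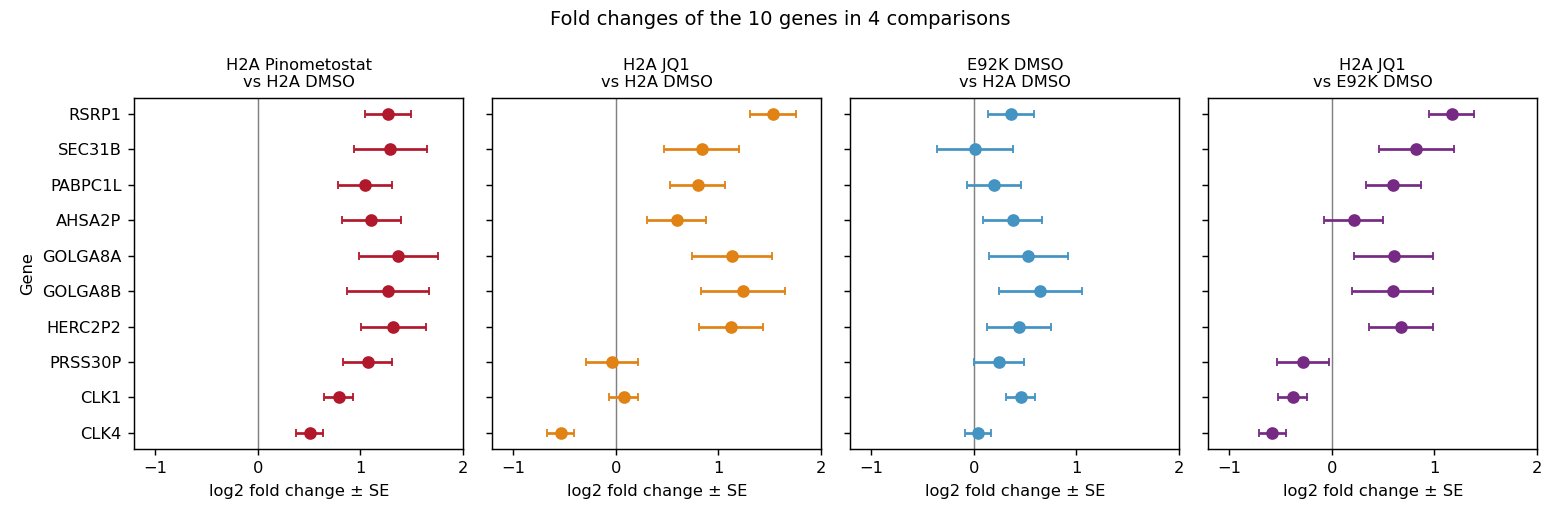
Log2 fold change (x axis, bars are SE) of each gene in 4 comparisons, the first group of each title over the second. In the pinometostat comparison, which served to choose the genes, all 10 points lie between 0.51 and 1.37, while CLK4 lies at -0.54 and -0.58 in the JQ1 comparisons.

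By group means, pinometostat was highest in 9 of the 10 genes and second to JQ1 in RSRP1, and H2A DMSO was lowest in 8 of them. The places of pinometostat and H2A DMSO follow from how most of the genes were chosen and are a description. In GOLGA8B pinometostat and JQ1 were almost equal, at 10.73 and 10.72 CPM. JQ1 was lowest for CLK4 and PRSS30P. Few neighbours in these orders had ranges that did not overlap: pinometostat above E92K in RSRP1, PRSS30P and CLK4, and H2A DMSO above JQ1 in CLK4. The last was seen in 12.2% of all tested genes. The share with pinometostat above E92K was not computed over all tested genes, so no result is read from those genes. In every other neighbouring pair the ranges of the libraries overlapped.

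Within groups, the 8 genes other than CLK1 and CLK4 went up and down together from library to library. The deviation of each library from its group mean (log2 CPM) was compared between genes over the 16 libraries, which share depth and RNA preparation between genes, so the values are descriptive. Among the 28 pairs of these 8 genes Pearson's r ran from 0.71 to 0.96 with a median of 0.90, and Spearman's rho from 0.71 to 0.98. Leaving out JQ1 replicate 1 and E92K replicate 4 left r at 0.79 to 0.98. In the 17 pairs with CLK1 or CLK4, r ran from -0.49 to 0.23 with a median of -0.02, and without these libraries from -0.49 to 0.70. The pair at 0.70 is CLK1 with CLK4, and the next highest, RSRP1 with CLK4, had 0.34.

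By CPM, the same libraries were highest for the whole set of 8. JQ1 replicate 1, E92K replicate 3 and H2A DMSO replicate 2 were each the highest of their group in 8 of 8 genes, and JQ1 replicate 4 and H2A DMSO replicate 4 the lowest of theirs in 8 of 8. Pinometostat replicate 2 was highest in 6 of the 8, and replicate 3 was lowest in 7. CLK1 and CLK4 were both highest in E92K replicate 1, which was the lowest E92K library for 5 of the 8 genes. The place of JQ1 replicate 1 depended on the scaling. In TPM it was the highest JQ1 library of these 8 genes only in GOLGA8A, GOLGA8B and HERC2P2. RSRP1 had 9.80 TPM there and 13.9 TPM in JQ1 replicate 3, and CLK1 was lowest in JQ1 replicate 1 at 12.8 TPM.

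**Figure D4:**
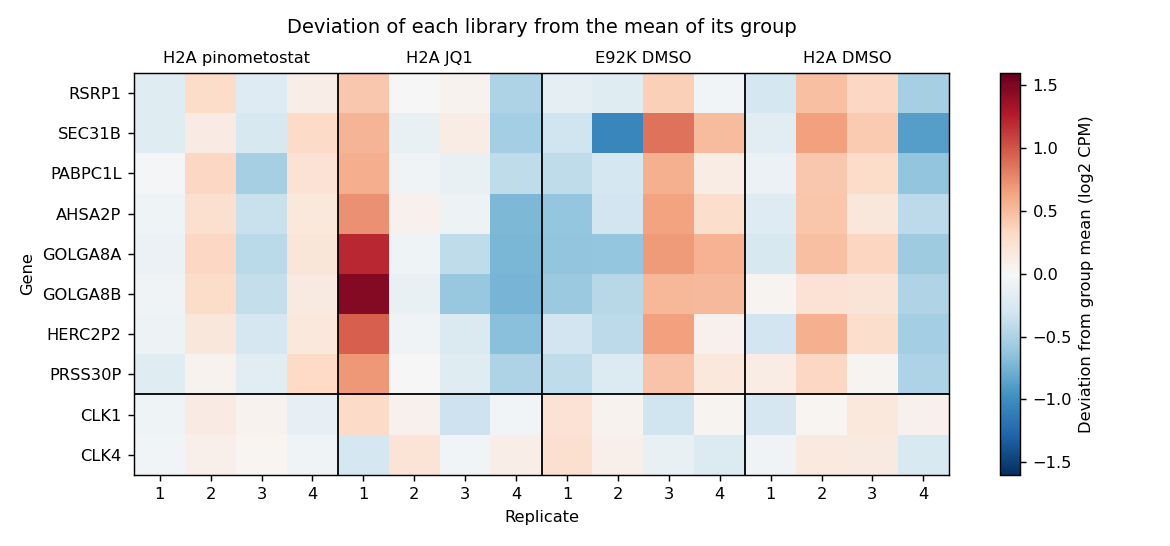
Deviation of each library (columns, by group and replicate) from the mean of its group in log2 CPM, for each gene (rows). Most columns keep the same sign through the upper 8 genes, up to 1.47 for GOLGA8B in JQ1 replicate 1, and change colour or fade in CLK1 and CLK4.

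Summed over the 8 genes, the level was 122 to 182 CPM in the pinometostat libraries, 81.7 to 225 CPM in JQ1, 61.3 to 124 CPM in E92K and 43.3 to 88.2 CPM in H2A DMSO. The JQ1 library with 225 CPM is replicate 1, which also had the highest mitochondrial share and the highest MALAT1 level of the series. Without it the JQ1 libraries had at most 122 CPM. The size of this gap depends on the scaling. The sum was not computed in TPM, in which RSRP1, SEC31B, PABPC1L, AHSA2P and PRSS30P were each higher in another JQ1 library than in replicate 1. E92K replicate 3, highest of its group with 124 CPM, had a mitochondrial share of 4.95% and 142 CPM of MALAT1, whereas E92K replicate 4 had 97.6 CPM beside 7.45% and 345 CPM.

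Library measures also moved with the pinometostat group. The mitochondrial share was 4.43% to 5.04% in the pinometostat libraries and 3.66% to 4.02% in H2A DMSO, and the share of counts in lincRNA genes was 0.370% to 0.491% in pinometostat and 0.255% to 0.341% in H2A DMSO, neither pair overlapping. The summed level of the nuclear long non-coding RNA list overlapped, with 355 to 422 CPM in pinometostat and 287 to 380 CPM in H2A DMSO. The part of these measures in the levels of the 10 genes was not tested.

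**Figure D5:**
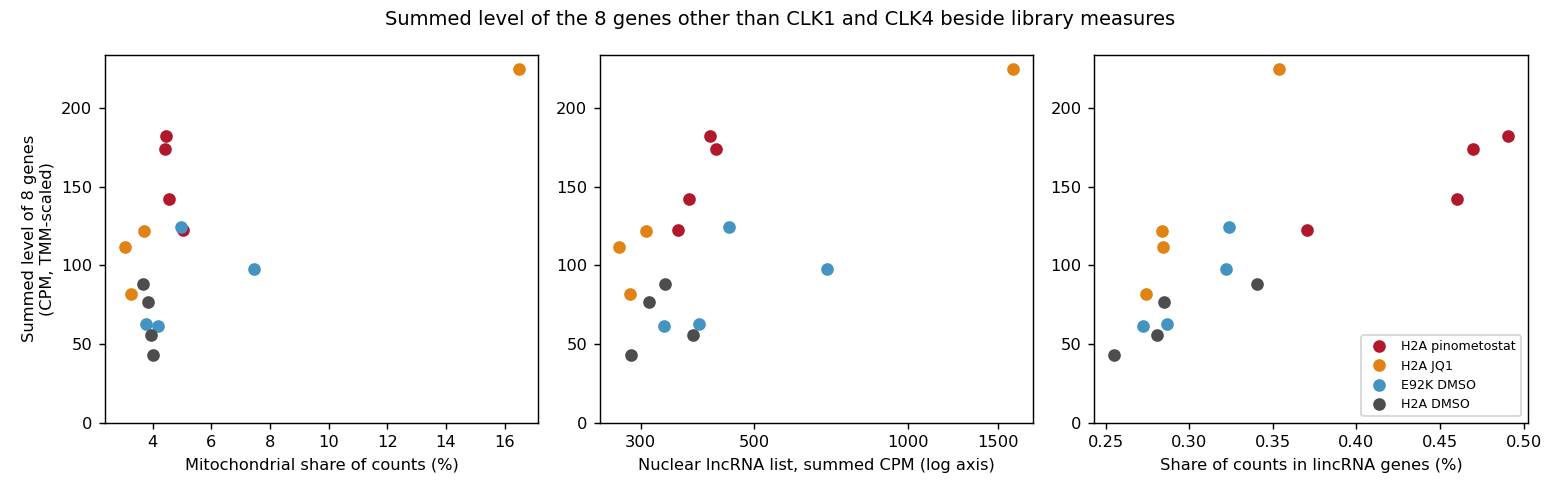
Summed level of the 8 genes other than CLK1 and CLK4 (y axis, CPM) against the mitochondrial share of counts, the summed CPM of the nuclear long non-coding RNA list (log axis) and the share of counts in lincRNA genes, each point a library. JQ1 replicate 1 is the point at 16.5% and 1606 CPM, and the 4 pinometostat libraries lie at the right of the lincRNA axis from 0.370% to 0.491%.

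Relatives of the 10 genes were read beside them, 14 of which passed the filter on low counts. In pinometostat against H2A DMSO, HERC2P3 was higher at 1.22 ± 0.32 CPM against 0.403 ± 0.157 CPM (1.58 ± 0.34 log2, edgeR adjusted p = 0.0129). HERC2P9 was higher at 7.93 ± 0.84 CPM against 4.95 ± 0.44 CPM (0.68 ± 0.17 log2, edgeR adjusted p = 0.0234). Both share sequence with HERC2P2, so these are not independent of it, and neither passed without H2A DMSO replicate 1 or on the log2(TPM + 1) scale. The list of relatives had 1 gene higher, in place of 2, without H2A DMSO replicate 3, without pinometostat replicate 1, 2 or 4, and with DESeq2, the stricter filter or the replicate block. The full-length HERC2 gene had 36.9 CPM in pinometostat and 39.1 CPM in H2A DMSO, a log2 difference of -0.08 ± 0.17.

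PABPC1, the cytoplasmic poly(A)-binding protein, fell to 773 ± 41 CPM in pinometostat, against 988 ± 57 CPM in H2A DMSO (-0.35 ± 0.10 log2, edgeR adjusted p = 0.0346), a call lost without H2A DMSO replicate 1, 2 or 3, without any 1 pinometostat library, with library size alone, with no filter, on the log2(TPM + 1) scale and with the replicate block. The other relatives with a mean of at least 1 CPM did not pass: PABPC4 had -0.26 log2, SEC31A -0.22, AHSA1 -0.15, GOLGA8H 0.38, and the kinases CLK2 and CLK3 0.18 and -0.02. CLK2 passed in JQ1, with 138 ± 26 CPM against 85.1 ± 11.1 CPM in E92K (0.70 ± 0.15 log2, edgeR adjusted p = 0.00275), while CLK4 was lower there. HERC2 was also higher, with 55.4 ± 6.3 CPM in JQ1 and 36.3 ± 7.6 CPM in E92K (0.61 ± 0.17 log2, edgeR adjusted p = 0.0129). Of the genes that overlap with one of the 10, USP34 had a log2 difference of 0.22 ± 0.20 in pinometostat against H2A DMSO and AL133352.1 one of 1.01 ± 0.48 at 0.893 and 0.438 CPM, with edgeR adjusted p of 0.528 and 0.193.

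The genes most like the 10 over the 16 libraries were sought among 11488 other genes with a mean of at least 5 CPM, by the correlation of log2 CPM with the mean z-score of the 10. The 8 closest were AC009533.1 and WSB1 (r of 0.96 each), SLC25A27, ANKRD19P and CCNL2 (0.94 each), and DDX39B, RRP7BP and WDR27 (0.93 each). Their deviations within groups had r of 0.88 to 0.97 with the same mean. These values and the group means below follow in part from that search, which used the same 16 libraries, and are a description. CCNL2, cyclin L2 of the splicing machinery, had 89.02 ± 14.04 CPM in pinometostat, 83.8 ± 48.3 CPM in JQ1, 56.9 ± 14.8 CPM in E92K and 46.9 ± 11.9 CPM in H2A DMSO. WSB1, an adaptor of a ubiquitin ligase, had 60.9 ± 7.0, 45.3 ± 15.9, 43.0 ± 5.2 and 33.4 ± 4.2 CPM in the same order of groups. ANKRD19P, a pseudogene, had 22.3 ± 4.8 CPM in pinometostat, 20.9 ± 15.01 CPM in JQ1, 13.99 ± 5.01 CPM in E92K and 10.1 ± 3.0 CPM in H2A DMSO.

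Other genes known for retained introns formed a list of 22, all tested. The list was chosen with earlier results of these data known, so its counts may not be independent of them and are a description. In pinometostat against H2A DMSO 5 rose and none fell, with a median log2 difference of 0.33, where 3.62% of all tested genes were called higher. TIA1, an RNA-binding protein of stress granules, had 88.7 ± 7.4 CPM in pinometostat and 54.1 ± 3.7 CPM in H2A DMSO (0.71 ± 0.10 log2, edgeR adjusted p = 0.00428). CCNL1, cyclin L1, had 41.7 ± 2.9 CPM in pinometostat and 27.0 ± 2.2 CPM in H2A DMSO (0.63 ± 0.10 log2, edgeR adjusted p = 0.00428). OGT, the enzyme that adds N-acetylglucosamine to nuclear and cytoplasmic proteins, had 146 ± 13 CPM in pinometostat and 100 ± 15 CPM in H2A DMSO (0.54 ± 0.12 log2, edgeR adjusted p = 0.0126). The other genes that rose were ARGLU1 and RBM5. The count was 12 higher and 3 lower with JQ1 replicate 1 and E92K replicate 4 left out of the fit. In that fit 2252 of all 17446 tested genes were called higher and 2530 lower. The list had 2 higher without H2A DMSO replicate 1, and none higher with 2 lower on the log2(TPM + 1) scale.

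In JQ1 the same list had 5 genes higher and 2 lower against E92K, where 10.9% and 11.9% of all tested genes were called, and 7 higher and none lower against H2A DMSO, beside 7.16% and 10.4%. These counts depended on the scaling, with none higher and 2 lower against E92K on the log2(TPM + 1) scale and 1 higher and 3 lower with library size alone. Against H2A DMSO they were 1 higher and none lower, and 3 higher and 1 lower, on these scales, and 11 higher and none lower without JQ1 replicate 4. CCNL1 had 44.5 ± 3.8 CPM in JQ1 and 31.5 ± 2.8 CPM in E92K (0.50 ± 0.10 log2, edgeR adjusted p = 0.00167). TIA1 was lower in JQ1, at 50.2 ± 3.4 CPM against 67.6 ± 5.6 CPM in E92K (-0.43 ± 0.10 log2, edgeR adjusted p = 0.00391). Without E92K replicate 1 or 2 the count of higher genes against E92K was 2. Without JQ1 replicate 1 the counts against E92K were 3 higher and 6 lower, and against H2A DMSO 6 higher and none lower.

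Of 8 tested nuclear long non-coding RNAs, none passed in pinometostat against H2A DMSO, with a median log2 difference of 0.44. Without JQ1 replicate 1 and E92K replicate 4 in the fit, 5 of the 8 were higher at a median of 0.43. In that fit 2252 of all 17446 tested genes were higher and 2530 lower. In JQ1 against H2A DMSO FTX alone passed, and none did without JQ1 replicate 1, when the median was -0.11 in place of 0.62. In JQ1 against E92K 1 was higher, and without JQ1 replicate 1 none was higher and 2 were lower. Of 10 other SR protein kinases and relatives, DYRK1B alone passed in pinometostat, at 18.0 ± 0.8 CPM against 26.0 ± 4.3 CPM in H2A DMSO (-0.53 ± 0.16 log2, edgeR adjusted p = 0.0473). That call was lost without H2A DMSO replicate 1, 2 or 3 and without any 1 pinometostat library. In JQ1 against E92K, CLK2 and CLK3 were higher and DYRK1A lower, and 1 kinase was higher without JQ1 replicate 1 or without E92K replicate 1, 2 or 4.

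Among 25 tested genes of nuclear RNA decay and export, none passed in pinometostat against H2A DMSO, with a median log2 difference of 0.01. The count was 5 higher and 3 lower with JQ1 replicate 1 and E92K replicate 4 left out, beside 2252 higher and 2530 lower of all 17446 tested genes. In JQ1 against E92K 2 were higher and 2 lower, beside 10.9% and 11.9% of all tested genes, and 1 was higher and 7 lower both on the log2(TPM + 1) scale and with library size alone. NXF1, the main mRNA export receptor, had 82.4 ± 17.7 CPM in JQ1 and 39.7 ± 5.3 CPM in E92K (1.05 ± 0.14 log2, edgeR adjusted p = 3.57e-05). ZCCHC8 and RBM7, subunits of the nuclear exosome targeting complex, were lower in JQ1, ZCCHC8 at 22.4 ± 9.3 CPM against 50.5 ± 17.3 CPM in E92K (-1.18 ± 0.26 log2, edgeR adjusted p = 0.00302) and RBM7 at 12.2 ± 4.3 CPM against 24.5 ± 7.6 CPM in E92K (-0.99 ± 0.24 log2, edgeR adjusted p = 0.00583). Without JQ1 replicate 1 the list had 4 higher and 9 lower, and without E92K replicate 1 or 2 it had 1 higher.

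Of 14 genes of nonsense-mediated decay, none passed in pinometostat and 2 were higher in JQ1 against E92K, RBM8A and SMG6, a count that was 6 higher and 2 lower without JQ1 replicate 1. No gene of any of these lists passed in E92K against H2A DMSO.

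Genes with annotated retained introns were not higher as a class in pinometostat. The median log2 difference from H2A DMSO was 0.07 in 9239 genes with no retained-intron transcript and -0.08 in 1105 genes with over 5 of them, the class that holds CLK1 and CLK4. In the first class 3.41% of genes were higher and 3.25% lower, and in the second 3.08% were higher and 6.97% lower. In JQ1 against E92K the medians were -0.04 and 0.25. Of the genes with over 5 such transcripts 28.1% were higher and 3.62% lower, beside 7.38% and 14.7% of the genes with none. CLK4, with 7 annotated retained-intron transcripts, was among those lower. These class values were not computed without JQ1 replicate 1.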

How the data were processed

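For 16 libraries the authors deposited read counts of every gene and a joint table of these counts, equal in all 920000 cells, and deposited TPM values equal to counts per exonic length scaled per library. Per the labels' protocols a service provider extracted RNA and made libraries; the sources used here do not name aligner, counter or strand setting. Samples were grouped by title. The protocol text gives pinometostat in millimolar; the sample field was used.

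Genes were kept with filterByExpr of edgeR 4.0.16 (minimum count 10, minimum total 15), TMM-scaled, and entered in 1 quasi-likelihood model of 4 group means in R 4.3.3 for all 16 libraries, leaving 12 residual degrees of freedom, two-sided, Benjamini-Hochberg adjusted over 17306 genes at 0.05. A library that stands apart thus enters every contrast. Deviations used log2 CPM with a prior count of 2. Alternatives used DESeq2 1.42.0, limma 3.58.1, limma on log2(TPM + 1), other scalings and filters, and fewer libraries. The fits were tested on counts simulated with known changes. Over the 4 comparisons they recovered 20.9% to 35.8% of 1.5-fold changes, 65.7% to 76.1% of 2-fold changes and 92.4% to 95.5% of 4-fold changes. A gene that did not pass can therefore still differ, above all by less than 2-fold. No replicate pair agreed within sampling noise (smallest chi-square per degree of freedom 3.79).

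The members and gene lists were chosen with earlier results of these data known. Named besides the 10 genes are, per list and comparison, up to 3 called genes with the smallest adjusted p, relatives with at least 1 CPM, overlapping genes and the 8 genes most alike; other called list genes are named as examples of a count. Transcript types, splice sites and shared 50-base words are from GENCODE 29. The result of 1 further gene on the list of markers of other cells is not reported here.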

Additional observations from a re-analysis of the deposited data

Results flagged for a closer look

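In JQ1 cells GOLGA8B had 24.1 CPM in replicate 1 against 5.13 to 7.96 CPM in the others, a gap to the next library of 0.851 of the group's range, above the 95% value of Dixon's test for 4 samples. Of 40 groups of 4 values examined for the 10 genes this was the only one set apart so, and chance gives about 1 in 20. The flag was examined on CPM alone and depends on that scaling. In TPM, GOLGA8B had 5.29 in JQ1 replicate 1 against 2.11 to 3.09 in the others, a smaller gap for its range.

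The same library stood apart in 5 library measures, of 20 groups examined. Its mitochondrial share was 16.5%, MALAT1 had 963 CPM, NEAT1 had 365 CPM, the nuclear long non-coding RNA list summed to 1606 CPM, and lincRNA genes took 0.354% of its counts. What part these have in the level of GOLGA8B was not tested. Without that library the log2 difference of GOLGA8B was -0.17 in JQ1 against E92K, where it was 0.59 with it.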

How the results depend on the processing

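The log2 differences of the 10 genes in pinometostat against H2A DMSO ran from 0.34 for CLK4 to 1.53 for GOLGA8A over 190 alternative values. All stayed within 1 SD of the main value, where SD is the gene's pooled spread of log2 CPM among libraries of a group. Some moved by more than the SE of the fit. SEC31B, at 1.29 ± 0.36, went down to 0.80, and GOLGA8B, at 1.27 ± 0.40, to 0.82. The number of genes called there, 1419, moved to 2348 with DESeq2, 457 on the log2(TPM + 1) scale, 4610 with the 8 libraries of the comparison alone and 4782 without JQ1 replicate 1 and E92K replicate 4, and ran from 283 to 1546 with 1 library left out. In JQ1 against H2A DMSO, 3044 genes became 1872 with 8 libraries alone and ran from 2216 to 3207 with 1 library left out. There 5 of the 10 genes were below the threshold, beside 17.6% of all tested genes. The DMSO libraries had served to choose the genes, so no call is read from this count. It became 3 with limma-voom, with library size alone, with upper quartile scaling, with the stricter filter and with both libraries left out. It was 2 on the log2(TPM + 1) scale and with 8 libraries alone, and ran from 2 to 6 with 1 library left out. For E92K against H2A DMSO, 0 genes became 4 with DESeq2, 4 with no filter and 3 without both libraries, and 0 to 1 with 1 library left out, none of them among the 10 genes. In JQ1 against E92K, 3962 genes became 2180 on the log2(TPM + 1) scale and 2276 with 8 libraries alone, and ran from 2997 to 5636 with 1 library left out; 2 of the 10 genes became 6 with no filter and ran from 2 to 6. The cause of these moves was not tested.

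Scaling by library size alone moved the median of all genes by -0.18 log2 in JQ1 against H2A DMSO and -0.15 in JQ1 against E92K, and log2(TPM + 1) moved it by -0.25, -0.15 and, in pinometostat, -0.11. The share higher among called genes was 44.1% in pinometostat (32.6% with library size, 57.2% with upper quartile, 15.1% with TPM), 40.7% in JQ1 against H2A DMSO (14.3%, 27.4% and 8.77%) and 47.8% in JQ1 against E92K (19.9%, 33.9% and 13.5%).

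Same-numbered samples did not deviate together (r over 0.1 in 2 of 24 pairs, and in 17 of 72 pairs of other numbers). With the replicate number as a block, 534 genes were called in pinometostat. In JQ1 against H2A DMSO 3 of the 10 genes were below the threshold, where no call is read for them.

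Directions that turned, none of them past the threshold, were as follows. In JQ1 against H2A DMSO, PRSS30P (-0.035) ran from -0.34 to 0.13 with 1 library left out, and CLK1 (0.078) was -0.21 with log2(TPM + 1), -0.12 with library size, -0.049 without both libraries, and -0.059 to 0.19 with 1 library left out. In E92K against H2A DMSO, SEC31B (0.012) was -0.073 with limma-voom, -0.075 with log2(TPM + 1), -0.019 with library size, -0.00054 with no filter, -0.12 without both libraries and -0.34 to 0.27 with 1 library left out. PABPC1L (0.20) was -0.035 to 0.35 and CLK4 (0.042) -0.055 to 0.088 with 1 library left out, and CLK4 was -0.066 with log2(TPM + 1). In JQ1 against E92K, AHSA2P (0.21) was -0.030 without both libraries and -0.090 to 0.48 with 1 left out, and GOLGA8B (0.59) was -0.0096 and -0.17 to 0.84.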
